A study of Homo sapiens with 6 samples.

Results

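Entry into mitosis is set by the kinase CDK1 with its B-type cyclins, and the genes described here encode regulators of this switch or of other steps of mitosis. WEE1 and PKMYT1 phosphorylate CDK1 on inhibitory residues, and the CDC25 phosphatases CDC25A, CDC25B and CDC25C remove these phosphates. The kinases PLK1 and AURKA promote the switch, TPX2 activates AURKA on the spindle, NEK2 splits the centrosomes, and CDC20 activates the ubiquitin ligase that ends mitosis. Many of these transcripts accumulate in G2 and M phase, and high levels of several of them are a common feature of ovarian carcinoma. The 10 members were taken by gene name from the 19973 genes of the deposited table, each name matched 1 row, and all 10 had enough reads to be tested.

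RNA-seq was performed on OVCAR3, a human cell line established from an ovarian cancer, in 3 libraries transfected with shNC, a control hairpin, and 3 transfected with shNUF2, a hairpin against NUF2. NUF2 is a subunit of the NDC80 complex, which ties kinetochores to spindle microtubules. Both groups were selected with puromycin to give stable lines, and 1 hairpin sequence was used against NUF2. Nothing in the labels or the methods says whether the libraries of a group came from separate cultures or clones, so that p-values measure only the spread between these libraries, which may be technical.

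The libraries held 13057534 to 16995452 counted reads. NUF2 had 63.5, 68.6 and 63.5 CPM in the shNC libraries and 20.8, 22.3 and 25.5 CPM with shNUF2, where CPM are counts scaled to library size with TMM factors. Its log2 fold change was -1.51 (SE 0.08, Benjamini-Hochberg adjusted p = 2.17e-15, edgeR quasi-likelihood test). Of 10 markers of ovarian carcinoma epithelium, 9 were tested, of which 4 rose (KRT8, EPCAM, PAX8 and KRT18, with log2 fold changes of 1.04, 0.69, 0.64 and 0.55) and 4 fell (MUC16, MSLN, FOLR1 and KRT7, with -0.75, -0.75, -0.31 and -0.22). EPCAM had only 44 to 91 reads per library, CDH1 had 9 to 33, and WT1, at 0 to 7, was not tested. None of 5 leukocyte markers had enough reads to be tested, and MS4A1 was at 0 in every library. The summed leukocyte markers were at 0 to 0.25 CPM with shNC and at 1.13 to 1.38 CPM with shNUF2, and the summed endothelial markers at 1.75 to 3.38 and 3.41 to 5.0 CPM. Of the endothelial markers, CDH5 rose from 1, 1 and 4 reads to 15, 19 and 27 (log2 fold change 3.45), while PECAM1 was at -0.02. The fibroblast markers summed to 84.0 to 90.5 CPM with shNC and 68.6 to 75.2 CPM with shNUF2, most of it COL1A1, which fell with a log2 fold change of -0.39, and there were at most 2 reads per library for COL1A2 and LUM. In the same list DCN rose from 65, 40 and 67 to 130, 104 and 117 reads (log2 fold change 1.22). The part of these differences in the results was not tested.

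The promoter sequences of 6 members were examined, because genes of the G2/M program often carry a CHR element, with the letters TTTGAA or TTCGAA, downstream of CCAAT boxes bound by NF-Y. The sequences are RefSeq windows of GRCh38.p14 from 250 bases before to 50 bases after each annotated start, searched on both strands. Motifs counted anywhere in a window, whatever their order or spacing. PLK1, CDC20, CDC25B and CDC25C had a CHR together with a CCAAT box in at least 1 window, whereas CDC25A and NEK2 had CCAAT boxes alone. Over all 35116 windows, 16.4% held a CHR, 34.6% held CCAAT and 6.38% held both, as did 5 of the 12 windows of these members. Counted per gene, 7.85% of 27305 genes had both in at least 1 window. AURKA, TPX2, WEE1 and PKMYT1 have no entry in the table used. A CHR of each of the 4 genes and a CCAAT box of the 2 others are given here on the strand of the gene, with the motif in capitals. CDC20 has another CHR match, on the opposite strand from base -178, which is not printed. No CHR shown overlaps a CCAAT box. That of CDC20 lies downstream of a CCAAT box from base -100 but upstream of another from base -55, left in small letters.
PLK1, chr16:23678848-23678877, CHR from base -29: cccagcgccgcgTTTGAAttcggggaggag
CDC20, chr1:43358904-43358933, CHR from base -65: cgacggttggatTTTGAAggagccaatagg
CDC25C, chr5:138331817-138331846, CHR from base -30: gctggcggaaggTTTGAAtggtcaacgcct
CDC25B, chr20:3796260-3796289, CHR from base -38: ctgctgttatttTTCGAAtatataaggagg
CDC25A, chr3:48188458-48188487, CCAAT box read from the opposite strand, from base -58: agttgcttactgATTGGtggattccgtttg
NEK2, chr1:211675638-211675667, CCAAT box from base -34: gcccaccgcctgCCAATagactgcgagatc
CDC25B and CDC25C each have 4 annotated windows, and the CHR lies in 1 of them for CDC25B and in 2 overlapping ones for CDC25C. A match of letters is not a bound site, and promoter use was not measured. The genes with a CHR included 2 whose transcripts rose with shNUF2, PLK1 and CDC20, and 2 whose transcripts fell, CDC25B and CDC25C.

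With shNUF2, 7 of the 10 members rose and 2 fell at an adjusted p under 0.05, and AURKA did not pass. Across the 12874 genes tested, 33.9% rose and 33.8% fell by the same rule, so that a call in either direction was common (67.6%). The changes were small. The median log2 fold change of the members was 0.23, against -0.01 over all genes tested, and absolute changes ran from 0.05 for AURKA to 0.61 for CDC25B, where the median absolute change of all genes was 0.38. The methods of the study set limits on fold change and p without naming the scale of the fold change, and they were read here as a log2 fold change beyond 1 or -1 with p under 0.05. None of the members passed these thresholds, which 9.41% of all genes passed upward and 4.16% downward (13.6% in all). In TMM-scaled CPM, 9 members had no overlap between the 3 shNC and the 3 shNUF2 libraries, 7 of them higher and 2 lower with shNUF2, where the shares over all genes tested were 35.2% and 35.4% (70.6% together). In the deposited FPKM, which are scaled to library totals, PLK1 and CDC25A overlapped as well, leaving 5 members higher and 2 lower, against 33% and 38.1% of all genes tested (71.1% together). In bulk RNA, a change in the share of cells in G2 or M phase and a change in the RNA of these genes per cell cannot be told apart.

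**Figure D1:**
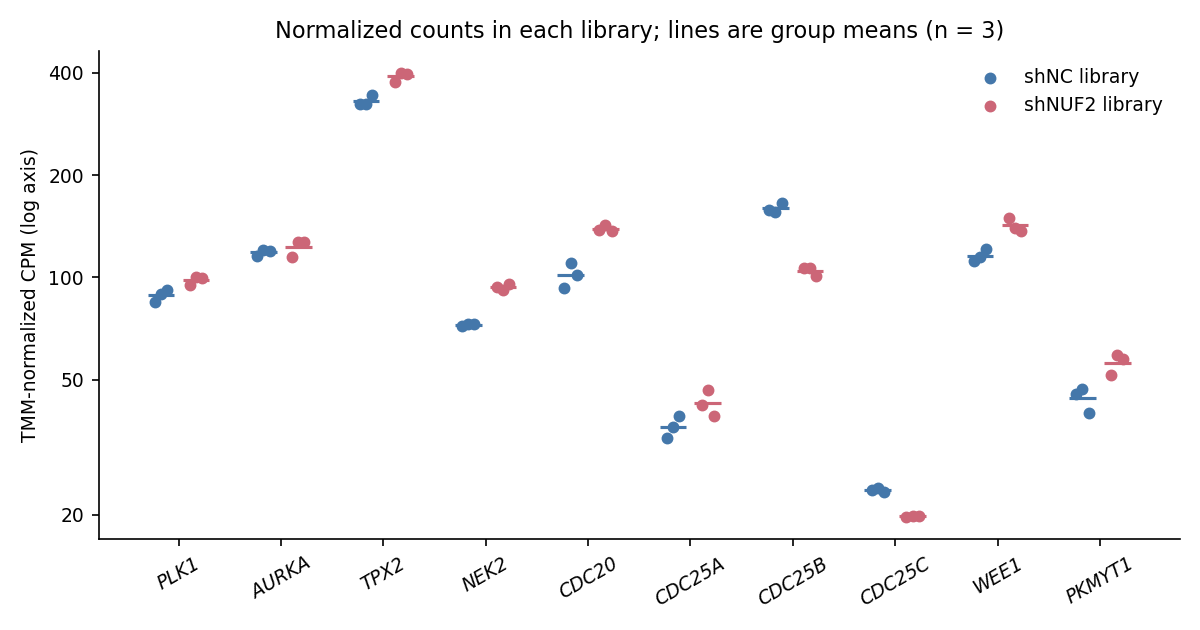
Normalized counts (TMM-scaled CPM, log axis) of the 10 members in each of 6 libraries, with lines at the group means. The shNUF2 points of CDC25B and CDC25C lie below the shNC points, those of AURKA overlap them, and those of the other 7 genes lie above, by the narrowest margin for CDC25A.

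PLK1 (ENSG00000166851, chromosome 16 of GRCh38 from 23677656 to 23690367), the kinase that promotes the CDK1 switch and builds the spindle poles, rose slightly. It had 84.4, 89.4 and 92.0 CPM with shNC and 95.04, 99.9 and 99.8 CPM with shNUF2. The groups did not overlap in CPM, although they did in FPKM, and the log2 fold change was 0.15 (SE 0.05, adjusted p = 0.0133, edgeR quasi-likelihood test). This call rests on single libraries: without shNC replicate 1 the edgeR adjusted p was 0.082 with a log2 fold change of 0.11, and without shNUF2 replicate 3 it was 0.0524 with 0.14. Scaling to library totals alone also ended it, at an edgeR adjusted p of 0.0629.

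AURKA (ENSG00000087586, chromosome 20 from 56369389 to 56392337), which phosphorylates and activates PLK1, had 116, 121 and 119.9 CPM with shNC and 115, 127 and 127 CPM with shNUF2. shNUF2 replicate 1 lay below every shNC library and the other two lay above them. The log2 fold change of 0.05 did not pass (SE 0.05, adjusted p = 0.389, edgeR quasi-likelihood test), with a 95% interval from -0.05 to 0.15.
TPX2 (ENSG00000088325, chromosome 20 from 31739271 to 31801805), the spindle factor that activates AURKA, rose. It had 324, 325 and 344 CPM with shNC and 375, 399.9 and 398 CPM with shNUF2, with no overlap. TPX2 had a log2 fold change of 0.24 (SE 0.04, adjusted p = 2.10e-05, edgeR quasi-likelihood test). The GENCODE 29 annotation lists 2 AURKA pseudogenes, with which AURKA reads can be shared, and none for TPX2.

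NEK2 (ENSG00000117650, chromosome 1 from 211658657 to 211675630), the kinase that dissolves the linker between centrosomes, rose. It had 71.7, 73.0 and 72.9 CPM with shNC and 93.5, 92.0 and 95.35 CPM with shNUF2. The gap between the groups was wide against the spread within them, at a log2 fold change of 0.37 (SE 0.05, adjusted p = 5.03e-07, edgeR quasi-likelihood test).
CDC20 (ENSG00000117399, chromosome 1 from 43358981 to 43363203), the activator of the anaphase-promoting complex and the target of the spindle checkpoint, had the largest estimated rise among the members. It had 93.1, 110.3 and 101 CPM with shNC and 138, 143 and 137 CPM with shNUF2. The lowest shNUF2 library lay well above the highest shNC library, shNC replicate 2. This corresponds to a log2 fold change of 0.45 (SE 0.05, adjusted p = 3.71e-08, edgeR quasi-likelihood test). The annotation lists 2 pseudogenes named after NEK2 and 1 after CDC20, and none of these is a row of the table.

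The CDC25 phosphatases did not move together. CDC25B (ENSG00000101224, chromosome 20 from 3786772 to 3806121), the form that starts CDK1 activation at the centrosome, fell furthest. It had 158, 155 and 166 CPM with shNC and 106, 106 and 101 CPM with shNUF2, a ratio of 0.654. Every shNUF2 library was far below every shNC library. The log2 fold change was -0.61 (SE 0.05, adjusted p = 1.28e-11, edgeR quasi-likelihood test), and it was the only member (1 of 10) that passed the TREAT test in edgeR, which asks for a log2 change beyond 0.5 (adjusted p = 0.0147).
CDC25C (ENSG00000158402, chromosome 5 from 138285265 to 138338355), which PLK1 activates in a loop with CDK1, fell less. It had 23.7, 24.0 and 23.3 CPM with shNC and 19.7, 19.8 and 19.8 CPM with shNUF2. The groups did not overlap although the gene was the lowest of the members. The log2 fold change was -0.26 (SE 0.09, adjusted p = 0.0144, edgeR quasi-likelihood test), and its raw reads numbered 337, 384 and 401 in the shNC libraries against 265, 257 and 298.
CDC25A (ENSG00000164045, chromosome 3 from 48157146 to 48188417), which also acts on CDK2 at the start of S phase, rose. It had 33.6, 36.3 and 39.1 CPM with shNC and 42.1, 46.5 and 39.2 CPM with shNUF2. shNUF2 replicate 3 and shNC replicate 3 were almost equal. For CDC25A the log2 fold change was 0.22 (SE 0.08, adjusted p = 0.0145, edgeR quasi-likelihood test). The edgeR adjusted p was 0.113 without shNUF2 replicate 2, at a log2 fold change of 0.16, and 0.082 without shNC replicate 1, at 0.17.

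Both kinases that inhibit CDK1 rose. WEE1 (ENSG00000166483, chromosome 11 from 9573670 to 9593457), the nuclear one, had 111, 115 and 121 CPM with shNC and 149.8, 139.9 and 137 CPM with shNUF2. It rose by a log2 fold change of 0.30 (SE 0.05, adjusted p = 8.41e-06, edgeR quasi-likelihood test). Its groups were clearly apart.
PKMYT1 (ENSG00000127564, chromosome 16 from 2968024 to 2980479), its membrane-bound relative, had 45.2, 47.0 and 39.9 CPM with shNC and 51.5, 58.9 and 57.4 CPM with shNUF2. The groups did not overlap, with shNC replicate 3 lowest. PKMYT1 rose by a log2 fold change of 0.35 (SE 0.07, adjusted p = 1.36e-04, edgeR quasi-likelihood test).

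**Figure D2:**
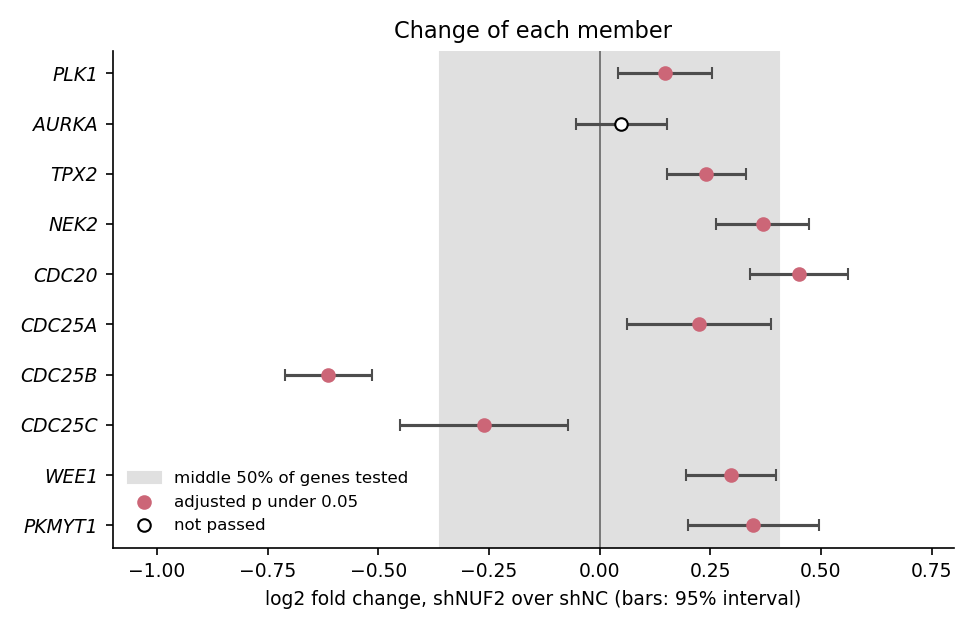
Log2 fold change of each member, shNUF2 over shNC, with 95% intervals from the edgeR fit, filled where the adjusted p was under 0.05. The grey band, from -0.36 to 0.41, holds the middle 50% of all genes tested; the estimates of CDC25B at -0.61 and CDC20 at 0.45 lie outside it and those of the other 8 members inside.

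Some members share their locus with other genes on the opposite strand. PKMYT1 overlaps PAQR4 and KREMEN2, with log2 fold changes of -0.36 and 0.97, and CDC25C overlaps FAM53C, which moved against it at 0.46. The library kit marks strand, but the strand setting of the counting is not given in the sources used here. Reads of such a pair may therefore have been mixed or dropped, and the part of this in the values of PKMYT1 and CDC25C was not tested.

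Levels between genes were compared as FPKM, in which counts are divided by gene length and library total. The lengths were those deposited with the counts, such as 9251 bases for WEE1, 4760 for PLK1 and 2012 for CDC20. They may differ from the transcripts expressed. The order of levels and the size of ratios between genes depend on them, which was not tested. With shNC, TPX2 was highest at 92.9 ± 3.29 FPKM (SD, n = 3), followed by CDC20 at 51.1 ± 4.58, AURKA at 41.0 ± 1.11, CDC25B at 37.5 ± 1.26, NEK2 at 23.7 ± 0.36 and PLK1 at 18.8 ± 0.88. The regulators at the lower end were WEE1 at 12.7 ± 0.56, PKMYT1 at 8.96 ± 0.77, CDC25A at 8.88 ± 0.69 and CDC25C at 7.18 ± 0.13 FPKM. All neighbours in this order were apart in every library of the group except PKMYT1 and CDC25A, whose ranges overlapped with shNC and with shNUF2. The order with shNUF2 differed in 1 place: NEK2, at 29.8 ± 0.51 FPKM, stood above CDC25B, at 23.9 ± 0.77.

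Ratios within a library do not depend on the scaling between libraries. A total of 8 such FPKM ratios were tested by an exact two-sided permutation test, for which 3 libraries against 3 allow no p below 0.10. The sum of the inhibitory kinases WEE1 and PKMYT1 over the sum of the CDC25 phosphatases was 0.408, 0.421 and 0.385 with shNC and 0.652, 0.645 and 0.681 with shNUF2. Its mean moved from 0.404 ± 0.018 to 0.66 ± 0.019 (SD, n = 3; exact permutation p = 0.10, Benjamini-Hochberg adjusted p = 0.133), a change of 1.63-fold. CDC25B made up 69.3% to 70.6% of the CDC25 transcripts with shNC and 59.0% to 60.5% with shNUF2. The share of CDC25A was 15.7%, 16.9% and 17.2% with shNC and 24.99%, 26.8% and 24.4% with shNUF2. CDC25C had the smallest share in both groups, 13.4% ± 0.61 with shNC and 14.7% ± 0.60 with shNUF2 (SD, n = 3), higher with shNUF2 although its own level fell. The groups did not overlap for any of the 3 shares, each at an exact permutation p of 0.10 (adjusted 0.133).

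**Figure D3:**
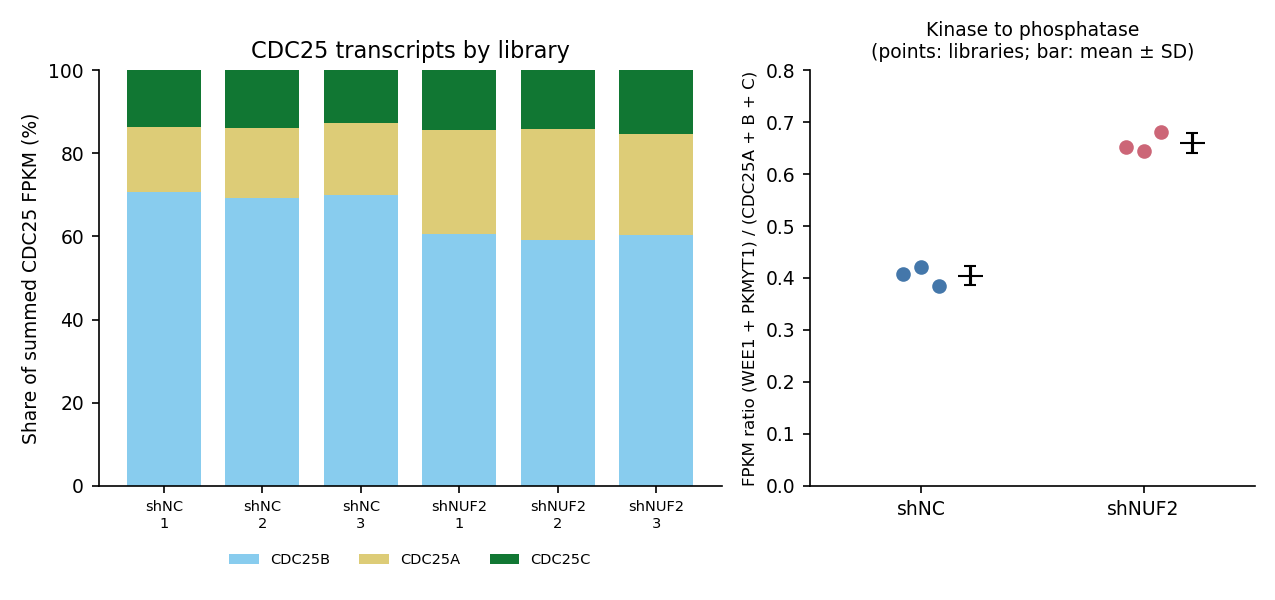
Left, the share (%) of CDC25A, CDC25B and CDC25C in their summed FPKM in each library, where CDC25B falls from about 70.0% to 59.9% on average. Right, the FPKM ratio of WEE1 plus PKMYT1 to the 3 CDC25 genes, with a point per library and the mean ± SD, where all shNUF2 libraries lie above 0.64 and all shNC libraries below 0.43.

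The ratio of TPX2 to AURKA was 2.27, 2.19 and 2.33 with shNC and 2.66, 2.56 and 2.55 with shNUF2, again without overlap (exact permutation p = 0.10, adjusted 0.133). CDC20 and FZR1 are the alternative activators of the anaphase-promoting complex, in mitosis and in G1. Both rose, with log2 fold changes of 0.45 and 0.76, and their ratio moved from 6.5, 8.54 and 6.72 with shNC to 5.63, 5.73 and 6.06 with shNUF2 (exact permutation p = 0.10, adjusted 0.133), a log2 difference of -0.31 that was -0.19 without shNC replicate 2. The ratio of PKMYT1 to WEE1 was 0.71 ± 0.084 with shNC and 0.734 ± 0.082 with shNUF2 (SD, n = 3), and the groups overlapped (exact permutation p = 0.50, adjusted 0.571). The ratio of PLK1 to CCNB1, which encodes cyclin B1, was 0.355 ± 0.025 and 0.361 ± 0.003 and overlapped as well (exact permutation p = 0.70, adjusted 0.70). For PKMYT1 to WEE1 the direction turned without shNC replicate 3 or shNUF2 replicate 2, and for PLK1 to CCNB1 without shNC replicate 2.

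CDK1 and its partners, on which the members act, were split. Of 7 genes tested, 2 rose and 2 fell, with a median log2 fold change of 0.03. The cyclin-dependent kinase subunits moved in opposite directions, CKS2 at 0.40 (SE 0.06) and CKS1B at -0.21 (SE 0.05). CCNB1 at 0.12 and CCNB2 at -0.16 were close to the limit (adjusted p = 0.0435 and 0.0474, edgeR quasi-likelihood test). Both calls depend on single libraries and on the processing. That of CCNB1 was lost without shNC replicate 1 or 3 or shNUF2 replicate 2 or 3, at log2 fold changes of 0.08, 0.09, 0.10 and 0.11. That of CCNB2 was lost without shNC replicate 3 or shNUF2 replicate 1 or 3, at -0.11, -0.16 and -0.09, and with the replicate number as a block (edgeR adjusted p = 0.0503). With all libraries, the CCNB1 call was also lost with upper quartile scaling, library totals, DESeq2, both limma fits and no filter, and the CCNB2 call with DESeq2, its size factors and the stricter filter on low CPM values.

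Among other kinases of the PLK, Aurora, WEE1 and NEK families, 14 of 17 had enough reads, and 6 rose and 2 fell (3 rose with limma on log2 FPKM). PLK2, an early-response relative of PLK1, rose by a log2 fold change of 1.26 (SE 0.08), whereas NEK9, which acts downstream of PLK1 in centrosome separation, fell with -0.93 (SE 0.06). NEK8 was at -0.89 (SE 0.20). PLK3 was at 0.23, a call that was lost without shNC replicate 2, at 0.16, without shNUF2 replicate 1, at 0.22, and without shNUF2 replicate 2, at 0.13, as well as with library totals alone, at 0.20, and with limma on log2 FPKM, at 0.18 and 0.19. PLK2, AURKC and NEK10 passed the log2 fold change and p thresholds above, the last 2 from few reads: AURKC reads numbered 4, 4 and 7 in shNC libraries against 14, 21 and 24 in shNUF2 libraries, and NEK10 reads 15, 22 and 10 against 23, 37 and 44. These last 2 were named after their values were seen.

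Activators and cofactors of PLK1 and AURKA were split, with 5 higher, 4 lower and 4 not past the test among 13. AJUBA, a LIM protein that activates AURKA, fell with a log2 fold change of -1.05 (SE 0.05, adjusted p = 1.17e-15, edgeR quasi-likelihood test). NEDD1, which brings gamma-tubulin to spindle poles under PLK1 control, was at -0.72 (SE 0.07). In the opposite direction, INCENP, the scaffold of Aurora B, was at 0.55 (SE 0.04) and TACC3, a spindle substrate of AURKA, at 0.42 (SE 0.05).

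The anaphase-promoting complex, which CDC20 activates, had 10 of 18 genes lower and 3 higher, with a median log2 fold change of -0.18. Its subunits ANAPC16 at -1.06 (SE 0.05), ANAPC1 at -0.74 (SE 0.05) and ANAPC7 at -0.68 (SE 0.08) fell. The 3 that rose were FZR1 at 0.76 (SE 0.07) and the ubiquitin-conjugating enzymes UBE2C and UBE2S, at 0.56 and 0.25, which are not core subunits. CDC20 rose while most tested subunits of the ligase were lower.

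Of the Greatwall pathway and PP2A-B55, the phosphatase that opposes CDK1, 5 of 8 genes rose and 2 fell (1 fell without shNC replicate 2). The B55 subunits PPP2R2A and PPP2R2D were at 0.61 (SE 0.05) and 0.49 (SE 0.07), the scaffold PPP2R1A at 0.44 (SE 0.05) and the catalytic PPP2CB at 0.38 (SE 0.06). The other catalytic subunit gene, PPP2CA, had more reads than PPP2CB and fell with -0.17. Of 15 genes for checkpoint kinases, 14-3-3 proteins and SCF adaptors, families that include regulators of CDC25 and WEE1, 7 rose and 5 fell. The 14-3-3 genes SFN and YWHAH rose with 0.80 (SE 0.05) and 0.71 (SE 0.07). YWHAG, YWHAB, YWHAQ and YWHAZ rose as well, with 0.41, 0.25, 0.23 and 0.13. Of the 14-3-3 genes only YWHAE, the one with the highest CPM in the list, fell, with -0.19. The damage kinases ATR at -0.67 (SE 0.07) and ATM at -0.43 (SE 0.05) fell.

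Transcription factors of the G2/M program were mostly lower, with 8 of 14 lower, 2 higher and a median of -0.26. FOXM1, which activates many G2/M genes, was at -0.52 (SE 0.07), the NF-Y subunit gene NFYB at -0.69 (SE 0.09) and the DREAM component RBL1 at -0.52 (SE 0.07). MYBL2, which joins the complex that binds CHR elements, was higher at 0.55 (SE 0.05). Of the 2 higher genes, 1 did not pass without shNC replicate 1 or 3 or shNUF2 replicate 1 or 2, or with DESeq2. Of the centrosome linker genes and NEK2 partners, 3 of 7 rose and 4 fell. The NEK2 substrate CEP250 rose with 0.31 (SE 0.04), while the linker genes CROCC and LRRC45 fell with -0.40 (SE 0.11) and -0.34 (SE 0.10). CEP68 was at -0.34, and at -0.26 without shNC replicate 3, where its edgeR adjusted p was 0.0648.

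Other genes with a peak in G2 and M were evenly split, with 8 of 20 higher, 6 lower and a median log2 fold change of 0.05. Among those that did not pass, NUSAP1 had only 4 to 12 reads per library and PRC1 16 to 21. TOP2A, the topoisomerase that untangles sister chromosomes, fell with -0.67 (SE 0.04) and the midbody kinesin KIF23 with -0.37 (SE 0.05). ANLN, which organizes the cleavage furrow, rose with 0.56 (SE 0.04) and HMMR with 0.45 (SE 0.07). The summed level of the list was 2580 to 2648 CPM with shNC and 2379 to 2480 CPM with shNUF2. TOP2A alone went from a mean of 798 CPM with shNC to 500 CPM with shNUF2, a larger drop than that of the sum. The summed level of the members was 1060.3 to 1119 CPM with shNC and 1186 to 1233 CPM with shNUF2. S phase genes had 9 of 18 lower and 2 higher with a median of -0.12, including MCM6 at -0.63 (SE 0.05), MCM3 at -0.57 (SE 0.04) and E2F1 at -0.45 (SE 0.07), with CDT1 at 0.67 (SE 0.06) in the opposite direction. Without shNC replicate 2 or shNUF2 replicate 3, as with DESeq2, limma, no filter or library totals alone, 1 S phase gene was higher. The difference between the members and these lists was not tested.

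**Figure D4:**
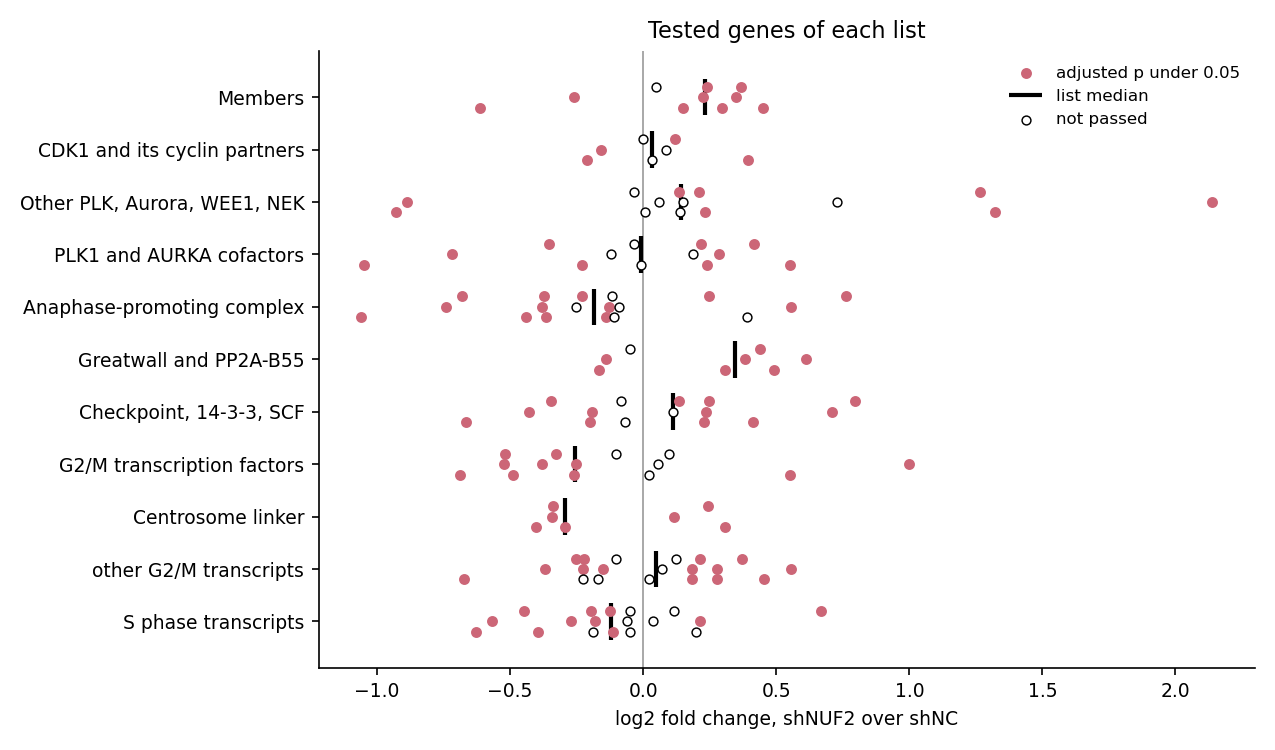
Log2 fold change of each tested gene in the members and in 10 lists of related genes, filled where the adjusted p was under 0.05, with a bar at the list median. The medians run from -0.29 for the centrosome linker to 0.35 for Greatwall and PP2A-B55, and each list holds genes on both sides of 0.

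The shNUF2 hairpin has a 21 nucleotide guide, and short seed matches of a guide can lower other transcripts. The guide, with its seed (bases 2 to 8) in capitals, is shown because the site that pairs with this seed, AGCAATT, was searched for in the longest annotated 3′ UTR of each member.
shNUF2 guide: aAATTGCTgaatggtaagaag
The site occurred in 0 of the 10 members and in 14.2% of the 12586 tested genes with an annotated 3′ UTR in GENCODE release 29.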

How the data were processed

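Libraries were prepared with a strand-specific mRNA kit and sequenced on an Illumina NovaSeq instrument. The authors deposited raw read counts per gene and FPKM, which scale each count by gene length and library total. The submitters' processing notes name cutadapt, HISAT, HTSeq and the build GRCh38.p13, without versions. The annotation release is not given in the sources used here. Columns of functional annotation were not used.

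The counts were tested in R 4.3.3 with edgeR 4.0.16 (filterByExpr, TMM, quasi-likelihood test, all 6 libraries, no covariate), and p-values were adjusted by Benjamini-Hochberg across every gene tested. SE is the log2 fold change over the square root of F. Alternatives were other scalings and filters, DESeq2 1.42.0, limma 3.58.1 on log2 FPKM with pseudocounts of 1 and 0.1, a replicate block, TREAT, overlap of groups in FPKM (chosen after seeing the data) and each library left out. The tests were tried on simulated counts. Libraries of a group differed by more than counting noise (chi-square per gene 2.62 to 4.25). Replicate numbers are shared between groups, but nothing says that they pair the libraries.

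The members, the lists and the tests were chosen with earlier results of these data known. Named genes are the members, NUF2, FZR1, CCNB1 and at most 4 per list, those with the largest change at an adjusted p under 0.05 and at least 1 log2 CPM on average. UBE2C, UBE2S, AURKC, NEK10, PPP2CA, YWHAE, YWHAG, YWHAB, YWHAQ, YWHAZ, NUSAP1 and PRC1 were named outside this rule, with their values seen. So were the overlapping genes and the cell type markers. Protein sequences were not used here, and other measurements of the study were not analysed here.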

Additional observations from a re-analysis of the deposited data

How the results depend on the processing

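Over 15 alternatives, 2 members fell in each and 5 to 7 rose. The 5 came from limma on log2 FPKM with either pseudocount and from leaving out shNC replicate 1, where PLK1 and CDC25A did not pass. None of the members passed a log2 fold change beyond 1 or -1 with p under 0.05 in any of these, nor with adjusted p, while 1 (CDC25B) passed TREAT. CDC25B ranged from -0.65 to -0.59 and AURKA from 0.01 to 0.10, never past the threshold. NUF2 was at -1.51 with the replicate block (edgeR adjusted p = 8.03e-16) and between -1.60 and -1.44 with a library left out. The block gave 7 members higher and 2 lower, as without it, and of the genes named it ended the call of CCNB2 (adjusted p = 0.0503). Deviations of same-numbered libraries correlated at 0.04, 0.02 and -0.05 across genes. With 3 libraries per group, such values cannot decide whether the numbers pair the libraries. With a library left out, the log2 difference of the PKMYT1 to WEE1 ratio lay between -0.0538 and 0.15 (0.05 with all libraries) and was negative without shNC replicate 3 (-0.0538) and without shNUF2 replicate 2 (-0.0014). That of PLK1 to CCNB1 lay between -0.0269 and 0.075 (0.03 with all libraries) and was negative without shNC replicate 2 (-0.0269). That of the kinase to phosphatase ratio lay between 0.67 and 0.74. The largest shift of the median of all genes was from -0.01 to 0.07, with no filter. Of 300 recomputed list counts, 268 stayed within 1.5 times. Causes of these differences were not tested.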
